A study of Arabidopsis thaliana with 3 samples.

Results

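The block of genes described here is the stretch of Arabidopsis thaliana chromosome 2 that holds a nuclear copy of the mitochondrial genome. Its genes were chosen by identifier, as every row from AT2G07600 to AT2G07999, which gave 68 of the 27416 rows in the deposited files. RNA was measured in 1 group of 3 libraries (replicates 4, 5 and 6) from whole wild-type Col-0 plants, 3 weeks old, as the expression data of a study of N6-methyladenine in DNA. The plants grew on MS plates at 23 ± 2 °C under long days (light for 16 h, dark for 8 h), and total RNA freed of ribosomal RNA went into directional libraries. There was no second genotype or treatment, and nothing in the labels says whether the replicates came from separate cultures, so each SD below measures only the spread between these libraries.

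Plant mitochondria keep a genome of their own, which encodes subunits of the respiratory complexes and the ATP synthase, proteins that mature cytochrome c, ribosomal proteins and many open reading frames without an assigned function. Fragments of that genome also reach the nucleus, where they lie under nuclear identifiers beside ordinary nuclear genes. In Col-0 a large such insertion sits next to the centromere of chromosome 2, and the genome assembly is known to hold only part of it as it exists in the plant. Mitochondrial transcripts are known to be edited at many cytidines and mostly to lack the long poly(A) tails of nuclear messages.

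In the assembly TAIR10.1 the insertion ran from chr2:3239038-3509765, a length of 271 kb, set against 368 kb for the mitochondrial genome. Of all 50-base words in the insertion, 95.9% were also found in the mitochondrial genome, and the insertion held 70.3% of the mitochondrial words. Aligned stretches of at least 1000 bases covered 269228 bases at 99.9% identity, with 190 substitutions. In 101 of these (53.2%) the mitochondrial genome had C where the nuclear copy had T, or G where it had A. Of the 101, 34 lay in a CG dinucleotide. The opposite changes, T to C or A to G, accounted for 18 (9.47%), and 71 were of other kinds. The mitochondrial bases of the aligned stretches were 44.7% C or G. The edges are shown because they mark where nuclear sequence gives way to mitochondrial sequence; capitals are the bases found in the mitochondrial genome, and both are on the plus strand of TAIR10.1, at chr2:3239008-3239067 and chr2:3509736-3509795.
left edge: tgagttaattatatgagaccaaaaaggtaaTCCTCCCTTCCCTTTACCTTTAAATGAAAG
right edge: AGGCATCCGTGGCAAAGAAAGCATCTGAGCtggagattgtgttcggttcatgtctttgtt

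All 68 genes were found in the RefSeq gene table as protein-coding genes. For 62 of them, called mitochondria-like here, between 83.7% and 100% of the 50-base words in their exons occurred in the mitochondrial genome, and in 35 every word did. All 62 lay inside the insertion. The other 6 shared no word with it and lay outside: AT2G07640 to the left, and ABCC13 (AT2G07680), MCM5 (AT2G07690), AT2G07750, AT2G07760 and AT2G07981 to the right. Among the mitochondria-like genes, 18 covered at least 200 bases of an identified mitochondrial coding sequence in sense, judged in the best alignment of each gene. These were 3 copies of complex I genes (nad1, nad2, nad3), 1 of complex III (cob), 1 of complex IV (cox3), 4 of ATP synthase (atp1, atp6, atp8, atp9), 4 of cytochrome c maturation (ccmC in 2 places, ccmFC, ccmFN2) and 5 of the ribosome (rpl2, rpl5, rps4, rps7, rps12). The remaining 44 covered no such sequence.

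Most genes of the block had low values. The files give 1 value per gene and library, taken here as FPKM, fragments scaled to the length of the gene model and to the library total, so that levels can be compared between genes of unequal length. The library totals recovered from the values were 19921241, 19905762 and 19892527 reads in replicates 4, 5 and 6, and in a gene of 1000 bases 1 read was worth 0.0502 to 0.0503 FPKM. The label of whole plants was checked against marker genes. The leaf markers RBCS1A, LHCB1.3, RCA and CAB3 averaged from 997 to 13523 FPKM. Of the root markers, SCR and PHT1;1 averaged 14.6 and 7.48 FPKM and the root hair genes EXPA7 and COBL9 0.016 and 0.070 FPKM, and the floral organ genes AP1, AP3, PI and AG stayed between 0.014 and 0.749 FPKM. The levels thus showed leaf tissue. The root markers were split, with SCR and PHT1;1 above 1 FPKM and the root hair genes near 0, so they do not settle whether roots were included.

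A gene counts as detected below where each of the 3 libraries gave it at least 1 FPKM. In the block 14 of 68 genes (20.6%) were detected, against 63.0% of all 27206 nuclear rows and 27.9% of the 122 mitochondria-encoded rows. A further 26 were above 0 in every library without reaching that level, 8 were above 0 in some libraries only, and 20 (29.4%) were listed at 0 throughout, against 18.2% of nuclear rows. Genes that every cell uses, such as mitochondrial cob (ATMG00220), are also listed at 0 in these files, so a 0 says only how a gene is listed. The median gene of the block had 0.479 FPKM, against 4.71 FPKM for nuclear rows and 0.455 FPKM for mitochondria-encoded rows. The mitochondria-encoded rows held only 0.0475% of the summed FPKM of the libraries, and the chloroplast-encoded rows 0.0686%. Why the rows of both organelles were this low was not tested, so a level near theirs is only a description of these files. On the log2(FPKM + 1) scale, which understates differences between low genes, the block median minus the nuclear median was -1.97 over the libraries together and -2.16 to -1.99 within single libraries. In whole plants, a low level in all cells and a higher level in few cells cannot be told apart. No test was made across genes, which are not replicates, and with 3 libraries the smallest two-sided p of an exact sign-flip test is 0.25.

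**Figure D1:**
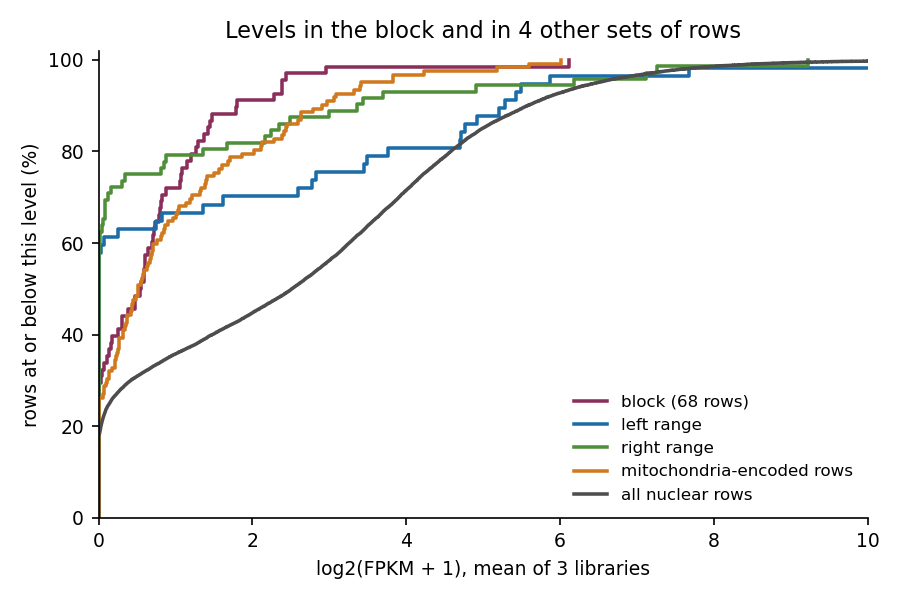
Cumulative share of rows (percent, y axis) against the level, log2(FPKM + 1) averaged over the 3 libraries (x axis), for the block, the ranges on either side of it, the mitochondria-encoded rows and all nuclear rows. The block curve starts at 29.4% listed at 0 and then follows the mitochondria-encoded rows at low levels, left of the curve of all nuclear rows.

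The ranges of identifiers on either side of the block held more rows listed at 0 and higher single genes. In the block 20 of 68 genes were listed at 0 and the highest averaged 68.2 FPKM. On the left (AT2G06000 to AT2G07599) 19 of 57 rows (33.3%) were detected and 33 were listed at 0, and on the right (AT2G08000 to AT2G12999) 15 of 72 (20.8%) were detected and 43 were listed at 0. The highest gene averaged 1186 FPKM on the left and 595 FPKM on the right. These counts are descriptions without a test.

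AT2G07671, a copy of atp9, had by far the highest level. The gene atp9 encodes subunit c of the ATP synthase, the ring of the enzyme through which protons pass. AT2G07671 (chr2:3251566-3252341, minus strand) had 67.2, 72.7 and 64.7 FPKM in replicates 4, 5 and 6, a mean of 68.2 ± 4.10 FPKM (SD, n = 3). It alone held 54.6 ± 1.36% of the summed FPKM of the block, which was 124.8 ± 4.37 FPKM with it and 56.6 ± 0.285 FPKM without it. The reads behind it were at least 601, 650 and 578, since the values imply a length of 449 bases where the annotation gives 776. The whole block made up 0.0170% of the summed FPKM of the libraries.

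Every 50-base word of AT2G07671 was also found in the mitochondrial genome, and the aligned copies were 100% identical. The atp9 coding stretch inside it (chr2:3251856-3252080, minus strand, 225 bases) is shown because it is the same in both genomes, letter for letter, so that an unedited read from it carries nothing that tells them apart; capitals mark the first and the last 3 bases of the coding sequence.
atp9 stretch: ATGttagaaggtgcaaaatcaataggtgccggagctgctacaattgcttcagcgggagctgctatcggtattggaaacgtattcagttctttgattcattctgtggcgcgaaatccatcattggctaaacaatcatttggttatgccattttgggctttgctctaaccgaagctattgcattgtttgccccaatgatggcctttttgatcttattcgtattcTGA

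The mitochondria-encoded partner, ATMG01080, had 63.5, 67.5 and 60.4 FPKM in replicates 4, 5 and 6. The nuclear row was higher in all 3 libraries, by a mean log2 difference of 0.09 ± 0.014 (n = 3), and both rows were highest in replicate 5 and lowest in replicate 6. The smallest read counts that fit these values were 1829 for AT2G07671 and 1921 for ATMG01080, over the 3 libraries. The higher FPKM therefore does not show more reads on the nuclear row. How the authors assigned reads that match both genomes, and on which strand they counted, is not given in the sources used here, and the part of either in these values was not tested.

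**Figure D2:**
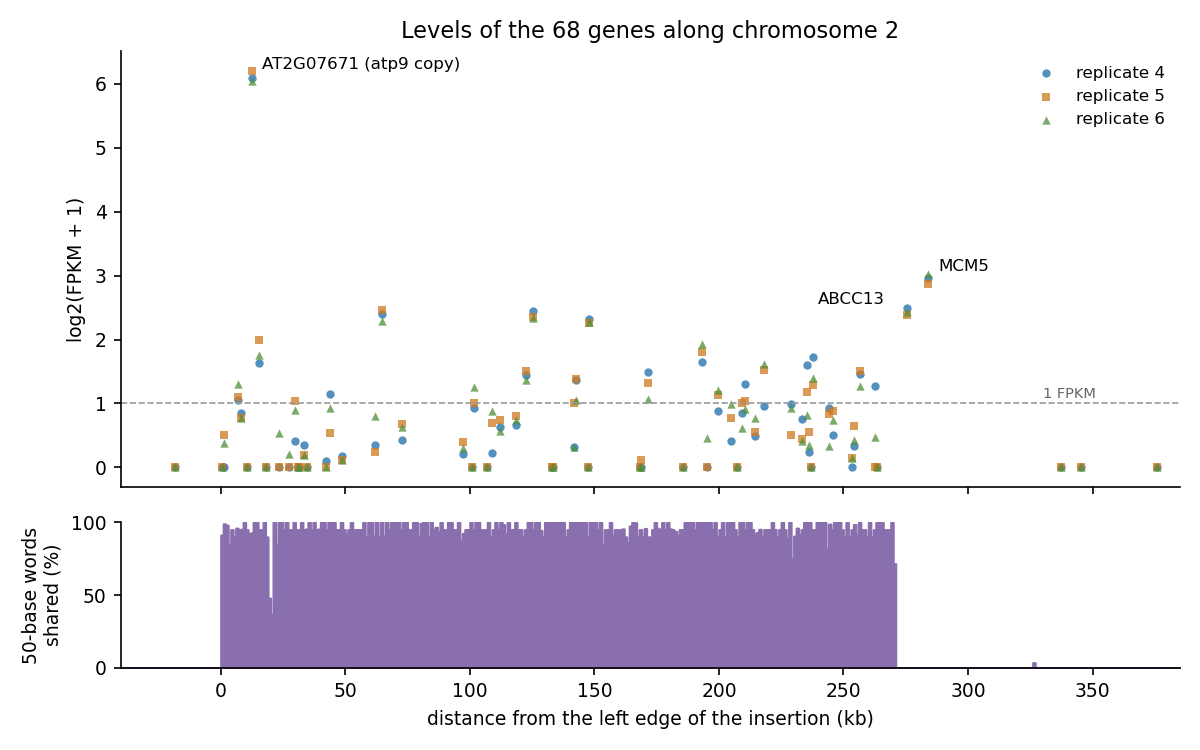
Upper panel: log2(FPKM + 1) of each of the 68 genes in each library (y axis) at the gene's distance from the left edge of the insertion in kb (x axis), with 1 FPKM as a dashed line. Lower panel: percent of 50-base words in bins of 1 kb that occur in the mitochondrial genome; the AT2G07671 points at 64.7 to 72.7 FPKM stand above all others, and MCM5 and ABCC13 lie beyond the right edge.

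Next in level came nuclear genes beyond the right edge of the insertion. MCM5, a subunit of the helicase that unwinds DNA for replication, had 6.83, 6.27 and 7.13 FPKM in replicates 4, 5 and 6 (6.74 ± 0.432 FPKM). ABCC13, a transporter of the ABCC (multidrug resistance-associated) family, had 4.64, 4.23 and 4.37 FPKM (4.41 ± 0.208 FPKM). Both were steady across the libraries, with SDs of 0.08 and 0.06 on the log2 scale. The remaining 4 genes that share nothing with the mitochondrial genome, among them the DEAD-box RNA helicase gene AT2G07750 and the zinc knuckle gene AT2G07760, were listed at 0 in all 3 libraries.

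Counted by class, 12 of the 62 mitochondria-like genes (19.4%) and 2 of the other 6 (33.3%) were detected, and 16 of 62 and 4 of 6 were listed at 0. The median of the mitochondria-like genes lay 0.48 ± 0.086 above that of the other genes on the log2 scale (n = 3), since the median of the other class was 0. That direction turned with the summary used: comparing class means gave -0.18, and keeping only genes at a mean of 1 FPKM or more gave -1.24, so these data give no stable order of the classes.

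Copies of the other mitochondrial coding genes were low, and only atp1 and rpl2 among them were detected. AT2G07698, which holds atp1 (the alpha subunit of the catalytic head of ATP synthase), had 1.73, 1.84 and 1.59 FPKM in replicates 4, 5 and 6. AT2G07715, which holds rpl2 (a protein of the large ribosomal subunit), had 1.80, 1.50 and 1.09 FPKM. The copies of atp6 (AT2G07741) and atp8 (AT2G07707), membrane subunits of the same synthase, were listed at 0.

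The copy of cob (AT2G07727), which encodes cytochrome b of complex III, had 1.47, 1.06 and 0.891 FPKM in replicates 4, 5 and 6, and so fell just short of detection in replicate 6. The copy of cox3 (AT2G07687), a core subunit of cytochrome c oxidase, had 0.352, 0.604 and 0.554 FPKM. Of the complex I copies, nad1 (AT2G07785) averaged 0.539 ± 0.341 FPKM and nad2 (AT2G07689) 0.234 ± 0.078 FPKM, and nad3 (AT2G07751) was listed at 0. These genes encode membrane subunits of the NADH dehydrogenase.

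Of the copies for cytochrome c maturation, which attaches heme to the protein, ccmFC (AT2G07815) averaged 0.674 ± 0.330 FPKM and ccmC in AT2G07681 averaged 0.102 ± 0.025 FPKM. The second ccmC copy (AT2G07771) and ccmFN2 (AT2G07768) were listed at 0. The other ribosomal copies were rpl5 (AT2G07725) at 0.786 ± 0.236 FPKM, rps7 (AT2G07696) at 0.564 ± 0.092 FPKM and rps4 (AT2G07734) at 0.458 ± 0.199 FPKM, with rps12 (AT2G07675) listed at 0. In the groups with more than 1 copy, the synthase, complex I, cytochrome c maturation and the ribosome, at least 1 copy was above 0 and at least 1 was listed at 0.

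Some of these copies differ from the mitochondrial gene inside the coding sequence. The stretches below are shown because the DNA of the nuclear copy and of the mitochondrial gene differs there. In the ccmFN2 copy (AT2G07768, chr2:3273767-3273796, plus strand) 1 base of the coding sequence is missing; the capital marks that base in the mitochondrial genome.
ccmFN2, nuclear: ttcgggatcccgtagaaatgcttcttttat
ccmFN2, mitochondrial: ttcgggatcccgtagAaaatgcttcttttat
The ccmC copy in AT2G07681 (chr2:3290765-3290795, plus strand) carries 1 substitution in the coding sequence, in capitals, while the other nuclear copy, AT2G07771, is 100% identical to the mitochondrial genome.
ccmC, nuclear: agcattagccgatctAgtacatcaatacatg
ccmC, mitochondrial: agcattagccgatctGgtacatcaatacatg
The rpl2 copy (AT2G07715) carries 3 substitutions in the coding sequence; the last of them, in capitals, lies in chr2:3411971-3412001, plus strand.
rpl2, nuclear: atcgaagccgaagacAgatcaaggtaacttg
rpl2, mitochondrial: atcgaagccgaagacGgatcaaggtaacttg

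The remaining 9 detected genes do not cover 200 bases of an identified mitochondrial coding sequence in sense. AT2G07774, uncharacterized, had 4.30, 4.50 and 3.91 FPKM in replicates 4, 5 and 6. AT2G07667, also uncharacterized, had 4.42, 4.12 and 4.06 FPKM. AT2G07708 had 4.00, 3.76 and 3.81 FPKM and the smallest SD of the detected genes, 0.04 on the log2 scale. These 3 stood within 1 FPKM of the nuclear gene ABCC13.

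A second tier lay between 1 and 3 FPKM. AT2G07719, annotated as a putative membrane lipoprotein, averaged 2.48 ± 0.325 FPKM and AT2G07779 averaged 2.48 ± 0.434 FPKM. AT2G07739, annotated as a Ycf1 protein, averaged 1.67 ± 0.221 FPKM. Ycf1 is a plastid gene, and 35.5% of the 50-base words of AT2G07739 also occurred in the chloroplast genome. AT2G07787, AT2G07706 and AT2G07776 averaged 1.80 ± 0.461, 1.42 ± 0.293 and 1.23 ± 0.216 FPKM. The only other gene with chloroplast words was AT2G07732, annotated with a Rubisco large chain domain, at 20.1% of its words and 0.772 ± 0.313 FPKM.

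**Figure D3:**
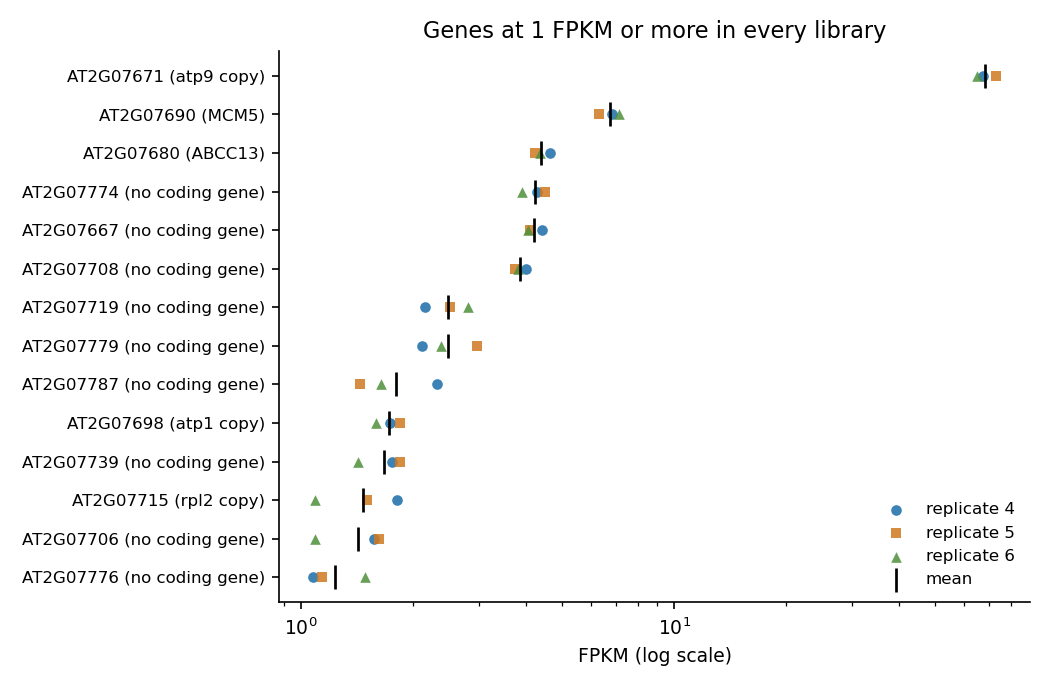
FPKM on a log axis (x axis) of the 14 genes at 1 FPKM or more in every library (y axis), with 1 point per replicate and a bar at the mean. The label "no coding gene" marks genes that do not cover 200 bases of an identified mitochondrial coding sequence in sense. AT2G07671 averages 68.2 FPKM, MCM5 averages 6.74 FPKM, and the others lie lower.

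The values of low genes rest on few reads. Among genes at a mean of 1 FPKM or more, AT2G07825 had the largest SD, 0.39 on the log2 scale, with 2.03, 1.27 and 0.762 FPKM in replicates 4, 5 and 6 from at least 8, 5 and 3 reads. AT2G07820 followed at 0.36, with 0.940, 1.88 and 2.07 FPKM from 5, 10 and 11 reads, and so had its lowest value in the replicate where AT2G07825 had its highest. AT2G07787 came next, at 0.23, with 2.32, 1.44 and 1.64 FPKM. Over the 18 genes between 1 and 10 FPKM the median SD was 0.15, against 0.10 in 7443 nuclear rows of the same range. Levels were not matched within this range, and most of the 18 genes lay near its lower end.

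At the lower end, AT2G07678 was the lowest gene above 0, with 0.068 FPKM in replicate 4, from at least 1 read, and 0 in replicates 5 and 6. AT2G07835 changed most between libraries among the low genes, with 1.43, 0 and 0.390 FPKM. It overlaps no other row of the block. Between libraries the block as a whole moved little: 42, 43 and 46 genes were above 0, and 18, 21 and 17 reached 1 FPKM, in replicates 4, 5 and 6.

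Detected genes were found both where every exon word was shared with the mitochondrial genome and where some were not. Of the 35 genes whose every exon word occurs in the mitochondrial genome, 7 were detected and 10 were listed at 0. Of the 27 with some exon words not found there, 5 were detected and 6 were listed at 0. The median was 0.503 FPKM in the 35 genes and 0.458 FPKM in the 27.

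The block could be set against the mitochondrial genes themselves. The RefSeq annotation names a mitochondria-encoded row as best match for 45 of the 62 mitochondria-like genes, with 44 different partners, since both ccmC copies match ATMG00900. In 15 pairs both rows were above 0 in at least 1 library, in 15 only the nuclear copy was, in 8 only the mitochondrial row was, and in 7 both were listed at 0. The nuclear copy was detected in 9 pairs, the mitochondrial row in 6 and both in 2, which were atp9 and AT2G07667 with ATMG01180. The other 17 mitochondria-like genes had no such partner, and 3 of them were detected.

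Over the 15 pairs with both rows above 0, the median log2 difference, nuclear minus mitochondrial, was 0.09, with a range from -2.59 to 1.35. With a pseudocount of 0.1 in place of 1 the median was 0.10 and the range ran from -3.65 to 3.54. With the pseudocount of 1, the medians within single libraries had an SD of 0.27 (n = 3), larger than the median itself. The nuclear copy was higher in all 3 libraries in 8 pairs and lower in all 3 in 5, with mixed signs in 2, AT2G07673 with ATMG01030 and AT2G07835 with ATMG00400. The pairs thus spread to both sides of equality.

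The atp1 copy and AT2G07739 had the 2 highest differences, in an order that turned with the pseudocount. AT2G07698 averaged 1.72 ± 0.124 FPKM and ATMG01190 averaged 0.066 ± 0.033 FPKM, a log2 difference of 1.35 ± 0.11, or 3.47 with a pseudocount of 0.1. AT2G07739 lay 1.31 ± 0.19 above ATMG00370, or 3.54 with that pseudocount. AT2G07706 lay 1.04 ± 0.14 above ATMG00470 and AT2G07692 lay 1.01 ± 0.08 above ATMG01300, or 2.72 and 3.18 with that pseudocount. These 4 partners rested on few reads over all libraries. There were at least 6 for ATMG01190, 4 for ATMG00470 and 1 each for ATMG00370 and ATMG01300. ATMG00370 was at 0 in replicates 5 and 6, ATMG01300 in replicates 4 and 5 and ATMG00470 in replicate 6. In those libraries the difference was taken against 0, so the size of these differences is uncertain. The rpl2 copy lay 0.70 ± 0.25 above ATMG00560 and AT2G07732 lay 0.49 ± 0.34 above ATMG00280, or 1.35 and 1.27 with that pseudocount, and AT2G07667 lay 0.36 ± 0.45 above ATMG01180. In AT2G07667 the difference was 0.88 in replicate 4 and 0.11 and 0.09 in replicates 5 and 6.

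In the opposite direction, the ccmFC copy AT2G07815 averaged 0.674 ± 0.330 FPKM and ATMG00180 averaged 8.97 ± 0.422 FPKM, a log2 difference of -2.59 ± 0.24 (-3.65 with a pseudocount of 0.1). AT2G07815 covered 551 bases of the ccmFC coding sequence in an annotated model of 1521 exon bases. The lengths of paired gene models were not compared. AT2G07798 averaged 0.668 ± 0.086 FPKM and ATMG01220 averaged 5.19 ± 0.555 FPKM, a difference of -1.89 ± 0.20 (-2.79 with a pseudocount of 0.1). The smallest read counts that fit these values were 59 for AT2G07798 and 106 for ATMG01220, over the 3 libraries. The cox3 copy AT2G07687 averaged 0.503 ± 0.133 FPKM and ATMG00730 averaged 2.20 ± 0.177 FPKM, a difference of -1.09 ± 0.20 (-1.95 with a pseudocount of 0.1). The nad2 copy lay at -0.56 ± 0.37 against ATMG01320, and AT2G07676 at -0.11 ± 0.18 against ATMG00970, or -1.44 and -0.38 with that pseudocount.

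**Figure D4:**
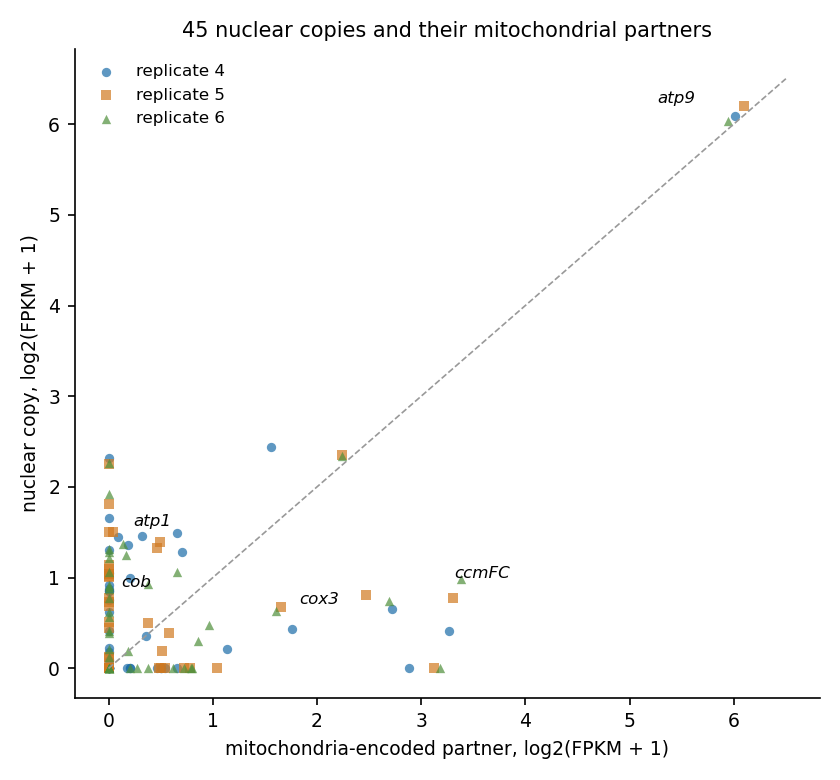
Level of the nuclear copy (y axis) against that of its mitochondria-encoded partner (x axis), both as log2(FPKM + 1), with 1 point per pair and replicate for 45 pairs and a dashed line of equality. The atp9 points lie at the line, ccmFC and cox3 below it and atp1 above it, and many points lie on an axis because 1 row of the pair is listed at 0.

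Where only 1 row of a pair was above 0 in any library, no fold was formed. The nuclear copy alone was above 0 for AT2G07708 (3.86 ± 0.129 FPKM, ATMG00500 listed at 0), AT2G07719 (ATMG00610), AT2G07776 (ATMG00530), cob (ATMG00220), AT2G07722 (0.837, 1.20 and 1.32 FPKM in replicates 4, 5 and 6, ATMG00620), rpl5 (ATMG00210), AT2G07674 (0.753 ± 0.378 FPKM, ATMG01010), rps7 (ATMG01270), nad1 (ATMG01275) and rps4 (ATMG00290). It was also so for AT2G07749, annotated as an RNA polymerase of a mitovirus (0.741 ± 0.054 FPKM, ATMG01110), and for AT2G07773 (ATMG00910), AT2G07681 (ATMG00900), AT2G07714 (ATMG00550) and AT2G07678 (ATMG00920), at 0.023 to 0.245 FPKM on average.

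The mitochondrial row alone was above 0 for 8 pairs, led by ATMG01090, at 6.36, 7.70 and 8.09 FPKM in replicates 4, 5 and 6, whose nuclear copy AT2G07777 was listed at 0. The other 7 mitochondrial rows averaged 0.103 to 0.629 FPKM. Their nuclear copies were AT2G07768 (ATMG00960, ccmFN2), AT2G07695 (ATMG01280), AT2G07741 (ATMG00410, atp6), AT2G07672 (ATMG01050), AT2G07675 (ATMG00980, rps12), AT2G07707 (ATMG00480, atp8) and AT2G07724 (ATMG00200). Both rows were listed at 0 for AT2G07771 (ATMG00900, ccmC), AT2G07751 (ATMG00990, nad3), AT2G07691 (ATMG01310), AT2G07701 (ATMG01150), AT2G07702 (ATMG01140), AT2G07713 (ATMG00540) and AT2G07718 (ATMG00590).

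The mitochondria-encoded rows were also counted by whether the annotation names them as best match of a gene in the block. This does not sort them by the presence of a copy, since the insertion holds 70.3% of the mitochondrial words. Of the 44 so named, 6 (13.6%) were detected and 21 were listed at 0, with a median of 0.046 FPKM. Of the 78 not so named, 28 (35.9%) were detected and 11 were listed at 0, with a median of 0.778 FPKM. Rows are not replicates, so these counts have no test, and the part in them of reads that match both genomes was not tested.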

How the data were processed

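Each deposited file lists genes with a value whose unit the header does not give. The values are called FPKM here, as the authors' tools, per the submitters' processing notes, were TopHat2 (2.0.9) and Cufflinks (2.1.1) on the build TAIR10; RPKM from whole reads is equally possible. The strand setting and the handling of multiple matches were not given in the sources used here. Reads were recovered as the smallest whole numbers that fit the values (tolerance 0.0001 reads plus 1e-06 of the reads). They are a minimum for 27 of 48 genes above 0, whose implied length differs from the annotated one. In simulated libraries of 16100 genes, 300 were drawn among those simulated at their annotated length, and 99% gave back their reads. Recovery at other lengths was not checked, so that share does not cover the 27 genes.

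Means ± SD are over 3 libraries; differences use log2(FPKM + 1). Shared words of 50 bases lay within exons of TAIR10.1 (RefSeq), whose mitochondrial sequence may not be that of the authors' build; a gene was mitochondria-like at 50% shared words or more. Alignments used blastn 2.17.0; Python 3.11.15, numpy 2.4.6 and pandas 2.3.3 did the rest. All coordinates are 1-based. With 1 group no test was run. Named genes are the detected genes, those paired with a mitochondrial row and their partners, the 2 highest and the lowest above 0 of each class, and the 3 with the largest SD at a mean of 1 FPKM or more. The members and lists were chosen with earlier results of these data known. Alternatives were other thresholds, pseudocounts, summaries, word lengths and leaving out each library.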

Additional observations from a re-analysis of the deposited data

How the results depend on the processing

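No paired analysis was possible because there is 1 group. The count of detected genes was 14 and became 22 at a threshold of 0.5 FPKM (32.4%, against 66.7% of nuclear rows) and 8 at 2 FPKM (11.8%, against 57.9%); without each replicate in turn it ran from 14 to 17. The log2 difference of the block median from the nuclear median was -1.97, and -3.28 with a pseudocount of 0.1, -2.32 over genes at a mean of 1 FPKM or more and -1.83 with means in place of medians; leaving out a replicate gave -2.01 to -1.97. The difference of mitochondria-like from other genes was 0.48, and 2.29 with a pseudocount of 0.1, but -0.18 with means and -1.24 over genes at a mean of 1 FPKM or more; thresholds of 20% or 80% shared words and words of 25 bases left it at 0.48, since they give the same 62 genes. Leaving out a replicate gave 0.44 to 0.53. The share of summed FPKM was 0.0170%, and 0.00773% without AT2G07671, an alternative chosen after seeing the data, as were those for the flanking ranges, which stayed within 1.5 times. The median pair difference stayed between 0.09 and 0.23, the last over 2 pairs. Its medians within single libraries had an SD of 0.27, so that span understates how far it varied between libraries. Of 60 values of single pairs, 46 moved by less than the SD, 12 moved further in the same direction with a pseudocount of 0.1, and 2 turned: AT2G07673 ran from -0.10 to 0.10 and AT2G07835 from -0.77 to 0.039 when a replicate was left out. The cause of these changes was not tested.

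Depth limits the low genes: 1 FPKM in 1000 bases is 19.9 reads, so most of the block rests on few reads and a level of 0 cannot be told apart from a low one. Reads identical in the nuclear and mitochondrial copies cannot be told apart from values per gene.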
